A study of Mus musculus with 16 samples.

Results

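The subcortical maternal complex was followed through 6 genes, Nlrp5, Ooep, Tle6, Khdc3, Padi6 and Zbed3, which were taken by name from a table of RPKM values (reads scaled to exon length and library size) for 25965 reference genes. The data came from wild-type C57BL/6 (C57BL/6Babr in the methods) mouse oocytes selected by diameter, with no transgene and no treatment in any group. RNA-seq was done in duplicate (libraries A and B) on oocytes of 10–30 μm (mice of postnatal day 5 to 7), 40–45 μm (day 7 to 12), 50–55 μm (day 9 to 14) and 60–65 μm (day 13 to 16), and 1 further column of values was for germinal vesicle (GV) oocytes, the fully grown stage, at day 20. DNA methylation was measured by RRBS, which samples CpG-rich restriction fragments, in duplicate in each class from 40–45 μm upwards, and by PBAT, which samples the whole genome, in 1 library of 60–65 μm oocytes. Each library pooled oocytes picked by hand, and diameter and the age of the mice moved together, so that the effects of size and age cannot be told apart. Neither the labels nor the methods say whether libraries A and B came from separate animals, so that the tests measure the spread between libraries, which may be technical.

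The proteins of the complex are made in growing oocytes and assemble beneath the plasma membrane, where they stay through the cleavage divisions of the embryo. NLRP5 (also called MATER) is an NLR-family protein and a core subunit, OOEP (FLOPED) and KHDC3 (FILIA) carry KH-type domains, and TLE6 is a relative of the Groucho corepressors that sits in the same core. PADI6 belongs to the peptidylarginine deiminases and is needed for the cytoplasmic lattices of the oocyte, and ZBED3 is a zinc finger protein that was described as a later addition to the complex. Loss of several of these proteins in the mother is known for the arrest of embryos in early cleavage.

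On GRCm38, the table placed Padi6 on the minus strand of chromosome 4 (140727355 to 140742643), Nlrp5 on the plus strand of chromosome 7 (23385889 to 23441922), Khdc3 on the plus strand of chromosome 9 (73101836 to 73104443), Ooep on the minus strand of the same chromosome (78376109 to 78378725), Tle6 on the minus strand of chromosome 10 (81590904 to 81601073) and Zbed3 on the plus strand of chromosome 13 (95325237 to 95337841). Khdc3 was listed under its older symbol 2410004A20Rik, and the other 5 under their own. Khdc3 overlaps Gm20509 on the same strand, Zbed3 overlaps Snora47 and Gm22661, and Nlrp5 overlaps Gm25196, so that reads there could be counted for either gene. No gene on the opposite strand overlaps any member. The RNA libraries were strand-specific, but whether strand was used in counting is not given in the sources used here.

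The promoters of the members differed widely in CpG content, the feature that DNA methylation acts on. In the 250 bases before the RefSeq start nearest to the start in the table, Khdc3 has 0 CpGs and Padi6 has 1, whereas Nlrp5 has 7, Ooep 11, Zbed3 13 and Tle6 17, against a median of 6 over 32851 RefSeq promoters. The extremes are shown here because the methylation of these stretches, given further on, can be measured only where there are CpGs. The stretch of Khdc3 lies inside the gene as the table places it, since RefSeq starts the gene 562 bases further in. The sequences are read 5′ to 3′ on the strand of the gene from RefSeq on GRCm38.p6, with every CpG in capitals. Those of Khdc3 (chr9:73102148-73102397) and Padi6 (chr4:140742644-140742893) have the fewest, and those of Zbed3 (chr13:95324575-95324824) and Tle6 (chr10:81600901-81601150) the most.
Khdc3: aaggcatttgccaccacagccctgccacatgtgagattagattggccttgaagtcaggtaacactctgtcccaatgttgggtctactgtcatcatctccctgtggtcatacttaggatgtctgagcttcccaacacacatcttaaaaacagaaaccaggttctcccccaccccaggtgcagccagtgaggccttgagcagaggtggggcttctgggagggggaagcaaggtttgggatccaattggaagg
Padi6: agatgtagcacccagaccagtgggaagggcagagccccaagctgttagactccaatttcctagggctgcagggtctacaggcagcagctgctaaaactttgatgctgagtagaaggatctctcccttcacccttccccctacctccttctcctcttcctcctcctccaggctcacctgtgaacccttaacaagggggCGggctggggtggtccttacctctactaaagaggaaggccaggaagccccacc
Zbed3: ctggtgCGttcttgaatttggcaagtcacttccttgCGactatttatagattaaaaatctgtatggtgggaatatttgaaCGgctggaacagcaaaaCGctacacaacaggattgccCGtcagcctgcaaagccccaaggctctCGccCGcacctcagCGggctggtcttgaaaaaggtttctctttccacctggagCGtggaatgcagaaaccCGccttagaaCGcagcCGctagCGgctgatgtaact
Tle6: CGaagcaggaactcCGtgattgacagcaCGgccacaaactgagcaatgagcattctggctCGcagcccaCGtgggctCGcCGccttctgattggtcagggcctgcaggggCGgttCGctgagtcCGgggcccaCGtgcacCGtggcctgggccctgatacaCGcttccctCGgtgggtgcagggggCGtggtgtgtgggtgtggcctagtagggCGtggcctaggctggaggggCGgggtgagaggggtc

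The E-box CANNTG, the kind of sequence that basic helix-loop-helix factors such as FIGLA bind, was found in the 250-base stretches of all 6 members (searched on both strands, on which it reads the same). It occurs in 66.2% of all RefSeq promoters, so that a match says little. Khdc3 had 5 matches, the nearest 11 bases before its start, Nlrp5, Tle6 and Padi6 had 2 each, and Ooep and Zbed3 had 1 each. The other sequences were searched on both strands too. The homeodomain-type sequence TAATTG was matched in Ooep alone (7.17% of all promoters), TAATTA in Nlrp5 alone (4.84%), and TATAAA in Zbed3 alone (12.4%), 208 bases before its start. These are matches of letters in a short window and were not tested for binding.

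Growing oocytes held large amounts of these transcripts from the smallest class onwards. The 6 genes together made up 3.35% of the summed RPKM of the table in library B at 10–30 μm and 2.87% in library A, 2.01 and 2.18% at 60–65 μm (A and B) and 1.83% in the GV column. Padi6, the most abundant, had the third-highest RPKM of 25965 genes in each of the 9 columns and gave between 43.9% (GV) and 58.3% (10–30 μm, A) of the summed RPKM of the complex. By mean RPKM over the 8 libraries of growing oocytes, Padi6 ranked 3, Nlrp5 12, Tle6 25, Khdc3 40, Zbed3 41 and Ooep 45. Over the single columns the rank of Zbed3 ran from 124 to 20, that of Khdc3 from 77 to 27 and that of Ooep from 81 to 28.

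Over the 8 libraries of growing oocytes together, the order of the levels was Padi6 over Nlrp5 over Tle6, with Khdc3, Zbed3 and Ooep at the bottom. Each of the 15 pairs of members was compared by the log2 ratio of their RPKM over the 8 libraries. An exact two-sided permutation test flipped signs within libraries. These libraries span all size classes and are not repeats of a single condition, so that p describes the order over this set. Padi6 was above Nlrp5 in 8 of 8 libraries, by 3.45-fold (log2 ratio 1.79 ± 0.19, SD, n = 8; exact p = 0.00781, the smallest that 8 libraries allow, and 0.00977 adjusted over the 15 pairs). Nlrp5 was above Tle6 in 8 of 8 libraries by 1.40-fold, and Tle6 above Khdc3 in 8 of 8 by 1.51-fold, with the same exact p. In all, 12 of 15 pairs passed. The 3 that did not were those among the lowest members, where neighbours in the order were not separated beyond their spread: Khdc3 against Zbed3 (log2 ratio 0.10 ± 0.71, SD, n = 8), Khdc3 against Ooep (0.07 ± 0.14) and Zbed3 against Ooep (-0.03 ± 0.80), with adjusted exact p of 0.770, 0.207 and 0.938. The spread of the pairs with Zbed3 includes a crossing between classes, since its mean of 128 RPKM at 10–30 μm lay below those of Khdc3 (207) and Ooep (210), and its mean of 205 at 60–65 μm above theirs (151 and 131). In the GV column, which was not tested, Zbed3 (266 RPKM) was second to Padi6, above Nlrp5 (247) and Tle6 (218).

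Between the smallest and the largest growing oocytes, 4 of the 6 members fell, Padi6, Ooep, Nlrp5 and Khdc3, beside 30.9% of all genes tested. Tle6 and Zbed3 did not pass the test. The fall was shallow, at most 1.77-fold, and the transcripts were still abundant in the GV column. RPKM is a share of the library, so that less of a transcript per oocyte and a growing pool of other RNA cannot be told apart, nor can fewer cells of a type and less RNA per cell in such pools. RNA per oocyte was not measured.

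Padi6 had 1581 RPKM (A) and 1815 (B) at 10–30 μm, 1272 and 1687 at 40–45 μm, 1099 and 1221 at 50–55 μm, 884 and 1006 at 60–65 μm, and 747 in the GV column. Both libraries at 60–65 μm lay below all 6 libraries of smaller oocytes. From 10–30 to 60–65 μm Padi6 fell 1.77-fold (log2 change -0.83 ± 0.15, SE; 95% interval -1.18 to -0.47; limma, Benjamini-Hochberg adjusted p = 0.0018).

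Ooep had 223 (A) and 197 (B) RPKM at 10–30 μm, 181 and 178 at 40–45 μm, 168 and 143 at 50–55 μm, 131 and 132 at 60–65 μm, and 109 in GV oocytes. It fell 1.57-fold from 10–30 to 60–65 μm (log2 change -0.66 ± 0.13, SE; limma adjusted p = 0.00243), and its class mean was lower at every step. Nlrp5 had 396 and 426 RPKM at 10–30 μm, 383 and 451 at 40–45 μm, 372 and 387 at 50–55 μm, 290 and 298 at 60–65 μm, and 247 in GV oocytes. The libraries at 40–45 μm lay to either side of those at 10–30 μm, and both 60–65 μm libraries lay below all 6 of the smaller classes (log2 change from 10–30 to 60–65 μm -0.46 ± 0.11, SE, a fall of 1.38-fold; limma adjusted p = 0.00593). Khdc3 had 197 and 217 RPKM at 10–30 μm, 204 and 181 at 40–45 μm, 161 and 152 at 50–55 μm, 150 and 153 at 60–65 μm, and 113 in GV oocytes. Its libraries up to 45 μm lay above those from 50 μm upwards (log2 change from 10–30 to 60–65 μm -0.43 ± 0.11, SE, a fall of 1.35-fold; limma adjusted p = 0.00914).

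Tle6 moved least of the members. It had 242 (A) and 286 (B) RPKM at 10–30 μm, 263 and 317 at 40–45 μm, 263 and 271 at 50–55 μm, 238 and 248 at 60–65 μm, and 218 in GV oocytes. The libraries at 60–65 μm overlapped those at 10–30 μm and lay below those at 40–45 and 50–55 μm, and the difference from 10–30 to 60–65 μm was -0.10 ± 0.12 (log2, SE; 95% interval -0.36 to 0.17; limma adjusted p = 0.490).

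Zbed3 was the one member whose class means ran upwards, and the one whose replicates lay far apart. It had 75.4 (A) and 180 (B) RPKM at 10–30 μm, 116 and 226 at 40–45 μm, 138 and 244 at 50–55 μm, 197 and 212 at 60–65 μm, and 266 in the GV column. The log2 difference from 10–30 to 60–65 μm was 0.83 with an SE of 0.42, against SEs of 0.11 to 0.15 for the other members. It did not pass the test (95% interval -0.14 to 1.80, limma adjusted p = 0.119). The fit has no replicate block, so that the distance between A and B is part of this SE. With a block by letter the call was different, as given further on. Library B was above library A in 4 of 4 classes, by a log2 of 1.17 at 10–30 μm, 0.91 at 40–45 μm, 0.81 at 50–55 μm and 0.12 at 60–65 μm (computed on scaled values). Of 10518 genes tested, 11 including Zbed3 were as far apart in this direction at 10–30 μm, and 10 had as large a mean difference over the classes. Without library B at 10–30 μm the difference was 1.41 and passed the test (limma adjusted p = 0.0159), and without library A of that class it was 0.24 (adjusted p = 0.627). The values at 10–30 μm correspond to 14196 reads in library A and 54276 in library B. What differed between libraries A and B was not tested, and whether reads of the overlapping Snora47 and Gm22661 took part was not tested either.

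**Figure D1:**
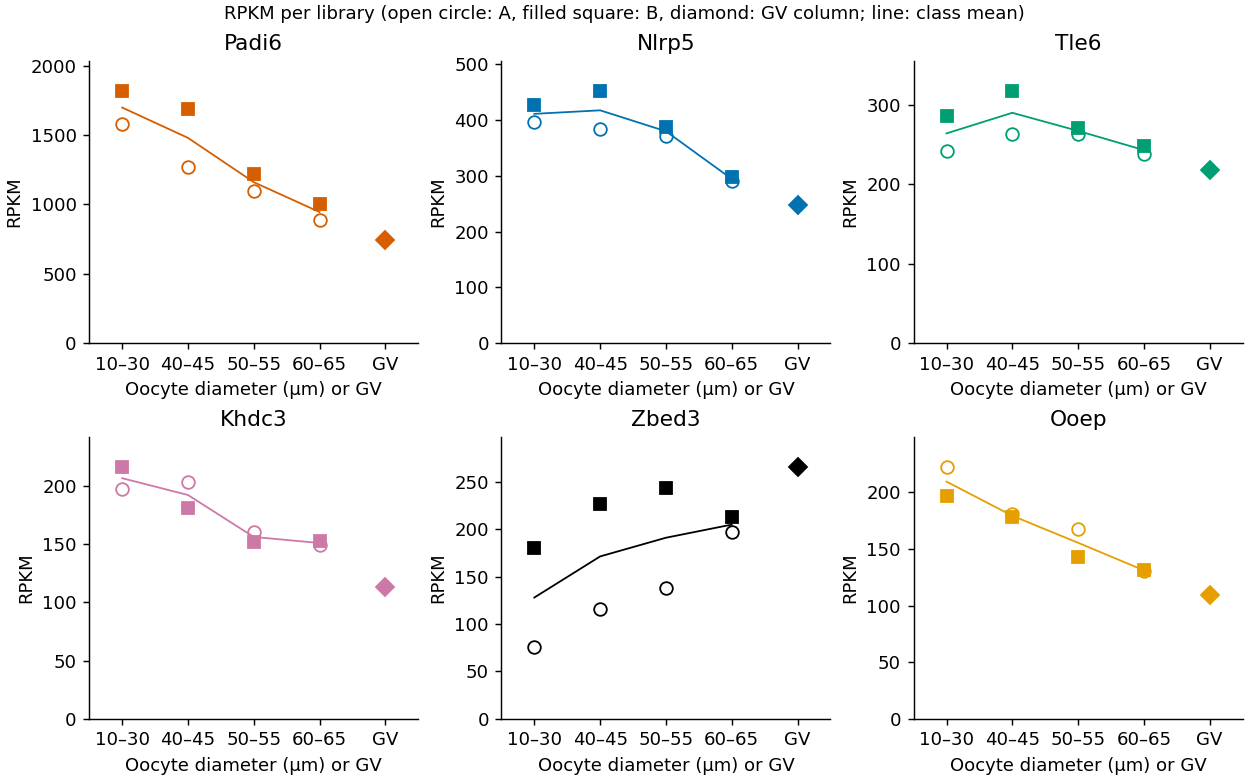
RPKM of each member (vertical axis, from 0) in each library against oocyte diameter in μm and GV (horizontal axis), with open circles for library A, filled squares for library B, a diamond for the GV column and a line through the means of the 4 size classes. Padi6, Ooep, Nlrp5 and Khdc3 end lower at 60–65 μm than they start, whereas Zbed3 runs from 75.4 and 180 RPKM to 197 and 212, with B above A.

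From 10–30 to 60–65 μm 63.3% of the 10518 genes tested passed, 30.9% falling and 32.5% rising, beside 4 of 6 members falling and 0 rising, so that the count is to be read against a large background of the genes that passed the filter on low values. The median log2 change was -0.45 over the 6 members and 0.02 over all genes. The 2 libraries at 60–65 μm lay wholly below those at 10–30 μm for 4 members (40.7% of all genes) and wholly above for 1, Zbed3 (41.6% of all genes). In the limma fit Khdc3 was no longer called without library A at 60–65 μm (log2 change -0.41, adjusted p = 0.0639). When genes without any minimum level entered the fit, Nlrp5 (adjusted p = 0.0838) and Padi6 (0.114) were not called.

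In this fit, which has no replicate block, no member passed in a single step between neighbouring classes. From 10–30 to 40–45 μm limma called 0 of 6 members, with 0 at an unadjusted p under 0.05, and 23.4% of all genes. From 40–45 to 50–55 μm it called 0 of 6, with 2 at an unadjusted p under 0.05 (Khdc3, log2 change -0.34, and Padi6, -0.38), and 8.90% of all genes. From 50–55 to 60–65 μm it called 0 of 6, with 1 at an unadjusted p under 0.05 (Nlrp5, log2 change -0.41), and 0% of all genes, although 1451 genes had an unadjusted p under 0.05. With edgeR's quasi-likelihood test on recovered reads, also without a block and for the 4 members it could be run for, 0 were called in each step. The median log2 change of the 6 members was 0.06, -0.21 and -0.23 in the 3 steps in order, and that of all genes was 0.03, -0.01 and -0.01.

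**Figure D2:**
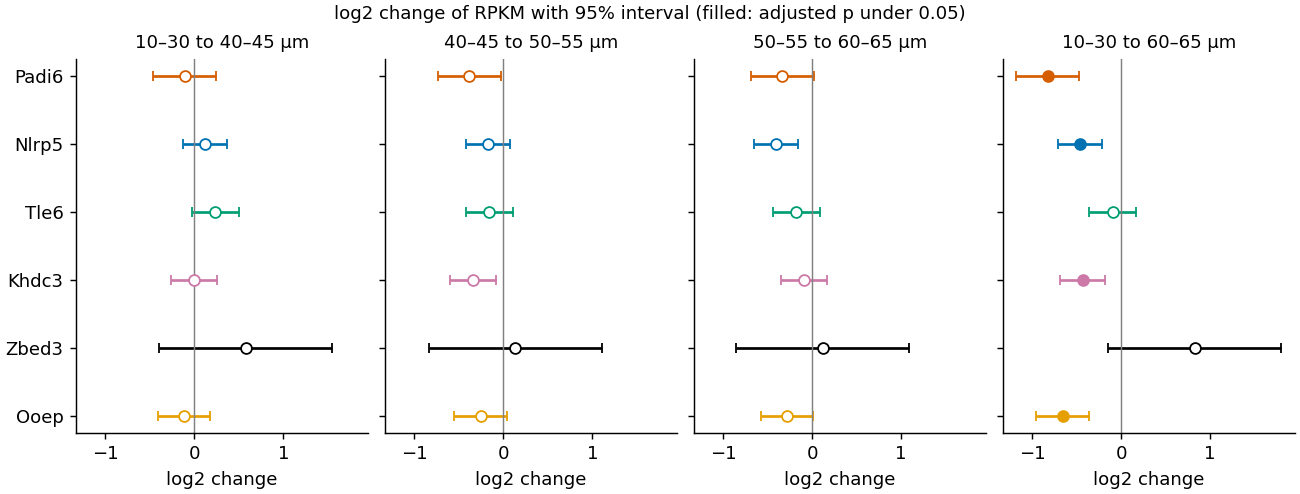
log2 change of RPKM (horizontal axis) of each member between size classes, later minus earlier, with 95% intervals from limma over 8 libraries and filled points for an adjusted p under 0.05. Filled points appear for Padi6, Nlrp5, Khdc3 and Ooep in the comparison of 10–30 with 60–65 μm, and the intervals of Zbed3 are the widest.

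The GV column, which has no replicate and was not tested, lay below both 60–65 μm libraries for 5 members and above both for Zbed3. The log2 difference from the 60–65 μm mean was -0.37 for Khdc3, -0.29 for Padi6, -0.22 for Ooep, -0.21 for Nlrp5, -0.11 for Tle6 and 0.42 for Zbed3, with a median of -0.21 over the members and 0.01 over all genes tested. Over all genes, 38.7% lay below both 60–65 μm libraries and 42.1% above both. Zbed3 was higher in its difference than 94.9% of the genes tested.

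The genes whose course over the 9 columns was most like that of a member, by the root mean square (RMS) difference between log2 profiles centred on their own mean, were mostly of much lower level. For Padi6 they were Plcg2 (RMS difference 0.04) and Zfat (0.05), with means of 9.75 and 1.73 RPKM in growing oocytes. For Ooep they were 9130011J15Rik (0.05) and Hspa5 (0.06), for Nlrp5 Msra and Dgkh (0.07 each), and for Tle6 Mtmr14 (0.04), itself at a mean of 188 RPKM, and Il17rb (0.05). For Khdc3 the nearest was Gm20509 (0.04), which overlaps it and can share its reads, followed by Isca2 (0.06). No gene came within 0.1 of Zbed3. Its nearest were Cnot3 and Prr14 (RMS difference 0.11 each), and both had lower values in A than in B in the 3 smaller classes, with 2.15 and 5.40 RPKM for Cnot3 and 2.59 and 5.05 for Prr14 at 10–30 μm.

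The members were not one another's nearest genes. Among the 15 pairs the smallest RMS difference was that of Ooep and Khdc3 (0.12), and 307 other genes were nearer to Ooep than Khdc3 was. The 5 pairs with Zbed3 had the largest differences, from 0.56 with Tle6 to 0.82 with Ooep.

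Of 8 genes for proteins known to bind the complex or the lattices, 1 rose and 1 fell from 10–30 to 60–65 μm, and 6 did not pass the test (median log2 change -0.11), against 32.5% rising and 30.9% falling over all genes. Nlrp2, a relative of Nlrp5, rose 2.57-fold from 19.8 and 20.5 RPKM to 49.6 and 52.8 (log2 change 1.36 ± 0.11, SE; limma adjusted p = 2.7e-05). Ube2d3, a ubiquitin-conjugating enzyme, fell 1.30-fold (log2 change -0.37 ± 0.11, SE; limma adjusted p = 0.0167). Nlrp14, also of the NLR family, had the highest level of these genes, with 941 and 901 RPKM at 10–30 μm and 710 and 792 at 60–65 μm, a difference that did not pass (limma adjusted p = 0.131). Dnmt1, the maintenance DNA methyltransferase, had 328 and 416 RPKM at 10–30 μm and 376 and 389 at 60–65 μm (limma adjusted p = 0.680).

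Of 15 genes related to a member by sequence, 10 were tested, of which 3 rose, 5 fell and 2 did not pass, and the other 5 did not reach 0.5 RPKM in 2 libraries. These are counts from 10–30 to 60–65 μm, where 32.5% of all genes rose and 30.9% fell, and the median log2 change of the 10 was -0.24. Within the peptidylarginine deiminase family, Padi6 was the one with a level above 1 RPKM. Padi2 fell (log2 change -1.32 ± 0.16, SE; limma adjusted p = 0.000191) from 0.670 and 0.927 RPKM to 0.249 and 0.254, and Padi1, Padi3 and Padi4 had at most 0.0124, 0.0219 and 0.0183 RPKM. Padi4 lies 3.22 kb from Padi6 on the same strand, where Padi6 had 747 to 1815 RPKM. Tle6 and Tle2, 0.059 kb apart on opposite strands, differed in the same way, with at most 0.0506 RPKM for Tle2. Ooep lies 7.93 kb from Dppa5a, a gene of the same KH-domain family, and Dppa5a had 225 and 196 RPKM at 10–30 μm and 192 and 217 at 60–65 μm, so that both neighbours were abundant. The largest changes among the other relatives were those of Zbed4, which rose by a log2 of 0.76, and of Aes, which fell by 0.75 (limma adjusted p = 0.000162 and 0.000416).

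Of 7 transcription factors that act in growing oocytes, all tested, 4 fell and 0 rose from 10–30 to 60–65 μm, and 3 did not pass (median log2 change -1.10), against 30.9% falling and 32.5% rising over all genes. Figla, whose protein binds E-boxes and activates zona pellucida genes, had 52.7 and 45.0 RPKM at 10–30 μm, then 28.7 and 28.8 at 40–45 μm and 11.6 and 12.6 in the largest class, a fall of 3.95-fold (limma adjusted p = 8.04e-06). Sohlh1 fell 30.6-fold (log2 change -4.94 ± 0.22, SE; limma adjusted p = 5.84e-06) and Sohlh2 5.80-fold, both of the basic helix-loop-helix class. Tbpl2, the oocyte form of the TATA-binding protein, fell 2.14-fold. Nobox and Lhx8, homeobox factors, had log2 differences of 0.07 and -0.09 (limma adjusted p = 0.580 and 0.444).

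At the starts of the genes, 500 bases to either side, the members had little methylation in 60–65 μm oocytes where it could be measured. Values are means over CpG cytosines with at least 5 reads, and the intervals are for calls pooled over the same cytosines (95%, Wilson) and cover counting error only, in 1 library without a replicate. Ooep had 0% (6 positions, 0 of 45 calls, interval 0 to 7.87%), Padi6 3.33% (6 positions, 1 of 38 calls, interval 0.466 to 13.5%), Tle6 3.99% (27 positions, 6 of 192 calls, interval 1.44 to 6.65%) and Zbed3 4.04% (44 positions, 11 of 279 calls, interval 2.22 to 6.92%). The value of Zbed3 was 7.60% with a minimum of 1 read per cytosine, 6.93% with 3 reads and 6.76% with the strands summed, and that of Tle6 was 0% with 10 reads. With 1000 bases to either side of the start Padi6 had 8.54% and Ooep 3.72%, and around the RefSeq start nearest to that in the table Ooep had 5.75%. The median over 19277 gene starts was 3.56%, and 5.94% of them had 25% or more, against 0 of 4 members. In the 250 bases of the Tle6 promoter printed above, 1 of 79 calls was methylated, and in that of Zbed3 1 of 30. In that of Padi6, with a CpG that crosses its edge, it was 0 of 9. In the stretches not printed, Nlrp5 had 5 of 31 calls methylated (16.1%) and Ooep 0 of 13.

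The other 2 starts could not be measured by this rule. Khdc3, whose start window holds 8 CpGs, had no cytosine with 5 reads there, and over all cytosines 0 of 11 calls were methylated, which allows a level of up to 27.3% (3 calls of 11; the Wilson interval ends at 25.9%). Nlrp5 had 2 such cytosines, and over all 32 cytosines with reads 11 of 80 calls were methylated (13.8%, interval 7.85 to 23.0%).

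The bodies of the members, from the edge of the start window to the end of the gene, ranged from low to intermediate methylation. Khdc3 and Ooep, the shortest genes of the complex (2608 and 2617 bases), had 4.60% (90 positions, 721 calls, interval 3.39 to 6.52%) and 4.87% (13 positions, 95 calls, interval 2.27 to 11.7%). Padi6 had 11.7% (166 positions, 1314 calls, interval 10.0 to 13.5%), Zbed3 14.1% (114 positions, 895 calls, interval 12.8 to 17.5%) and Tle6 19.1% (109 positions, 820 calls, interval 16.7 to 22.1%). Nlrp5, the longest at 56034 bases, had 28.2% (94 positions, 700 calls, interval 25.6 to 32.3%). The interval of Ooep overlapped those of Khdc3 and Padi6, and that of Zbed3 those of Padi6 and Tle6, whereas that of Nlrp5 lay above the other 5.

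Beside the mean RPKM at 60–65 μm, Padi6 stood apart, with 945 RPKM and 11.7%. With Padi6 left aside after the values were seen, the other 5 were in nearly the same order by both measures. Nlrp5 had 294 RPKM, Tle6 243, Zbed3 205, Khdc3 151 and Ooep 131. Gene length ran in a similar order among these 5, from 2608 bases (Khdc3) and 2617 (Ooep) to 56034 (Nlrp5). This is a description of 6 genes in 1 PBAT library, and neither relation was tested. Of the member bodies 1, that of Nlrp5, had 25% or more, against 44.0% of 21761 gene bodies, and the members' median was 12.9% against 19.3%. This background was not matched for gene length. In a gene body comparison the paper left out shorter genes, as unmethylated over much of their length. Khdc3 and Ooep fall below its limit. Among genes with a mean of at least 100 RPKM at 60–65 μm, a limit chosen after the values were seen, 34.1% of 82 bodies had 25% or more, with a median of 18.5%, and 5.17% of 58 starts did. Nlrp5 was below 25% when cytosines needed at least 10 reads (23.8%), and then 0 members reached it, with Zbed3 at 21.4%.

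**Figure D3:**
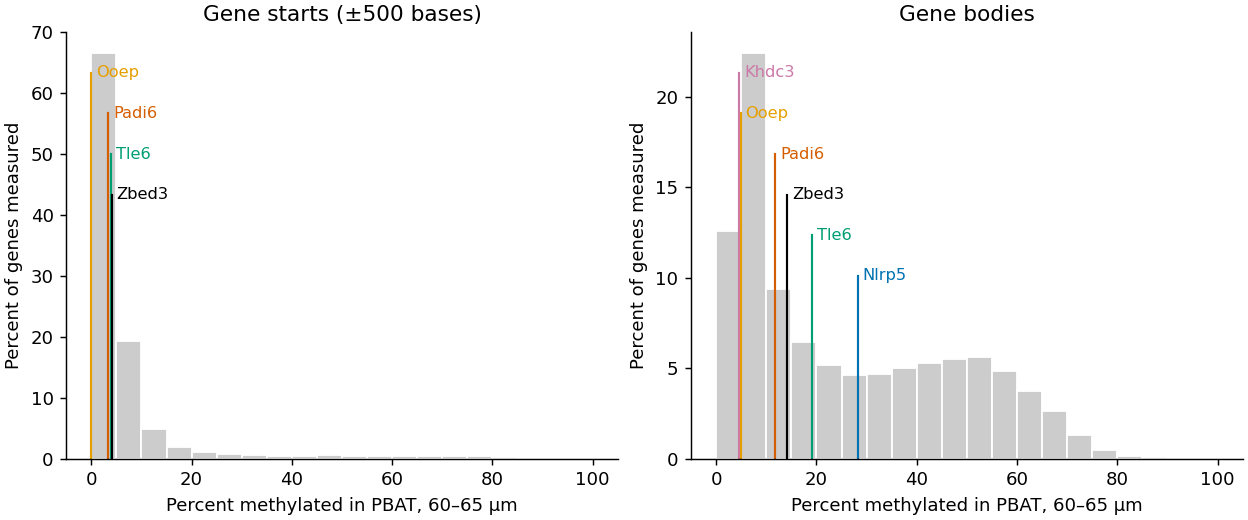
Percent methylated by PBAT at 60–65 μm (horizontal axis) of all gene starts (left, 19277 genes) and gene bodies (right, 21761 genes) as the percent of genes in steps of 5 percentage points (vertical axis), with lines at the members that could be measured. The 4 member starts lie between 0 and 4.04%, and the 6 bodies spread from 4.60% (Khdc3) to 28.2% (Nlrp5).

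Along the genes, calls pooled over all cytosines with reads placed the low level at the start and, in the longer members, higher levels inside. The body was split at its midpoint into a part nearer the start and a part nearer the end. In Tle6 the calls gave 3.08% at the start (9 of 292 calls), 10.6% in the nearer part (43 of 404), 23.4% in the farther part (184 of 785) and 23.3% in the 5 kb after the end, and the intervals of the 2 parts did not overlap. In Zbed3 the values were 5.91% at the start and 12.4% and 16.2% in the 2 parts, whose intervals overlapped. Padi6 had 1.54% at the start and 10.5% and 12.2% in the 2 parts, whose intervals also overlapped. Nlrp5 had 25.5% and 29.5% in the 2 parts and 56.9% in the 5 kb after its end (116 of 204 calls, interval 50.0 to 63.5%), above the gene itself. Ooep and Khdc3 stayed low beyond their ends, at 1.48% (4 of 271 calls) and 3.03% (3 of 99) in the next 5 kb. For Khdc3 these 5 kb lie inside the overlapping Gm20509, which had a mean of 117 RPKM in growing oocytes. Of the cytosines with at least 5 reads in the bodies, 5 in Nlrp5 and 1 in the farther part of Tle6 had 75% or more, and 0 in the other 4 members.

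**Figure D4:**
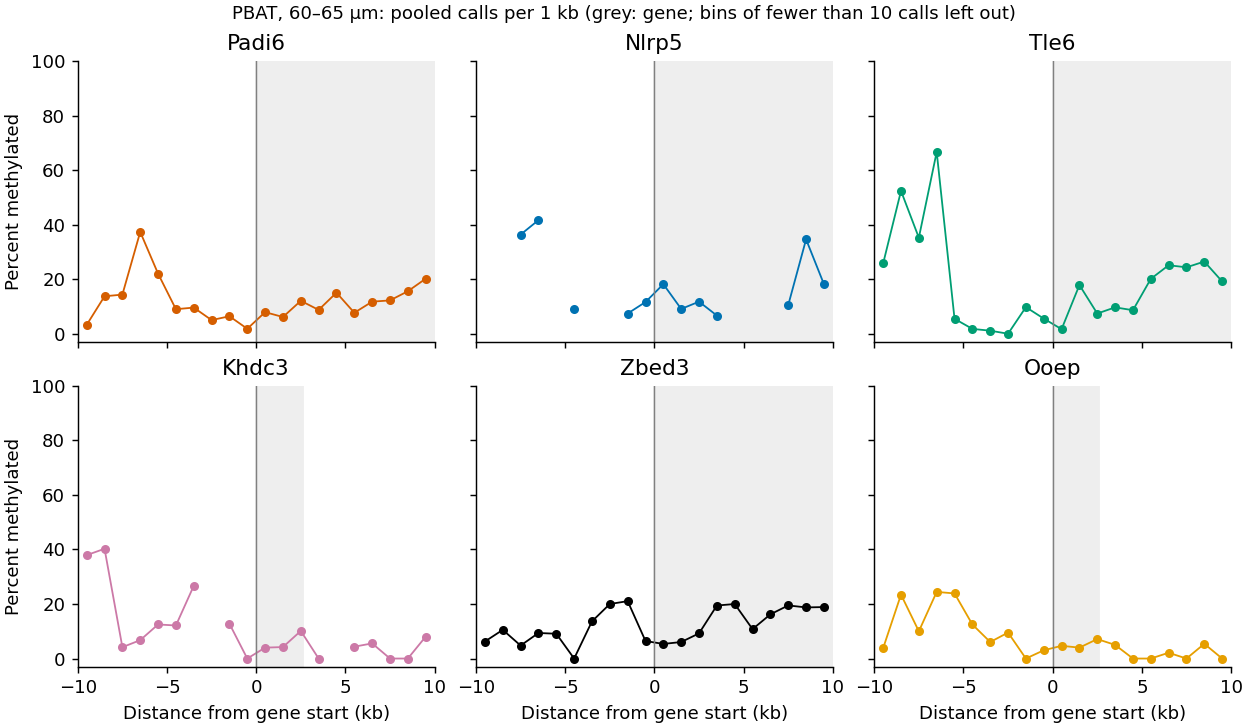
Percent methylated by PBAT at 60–65 μm (vertical axis) from pooled calls in steps of 1 kb against distance from the gene start in kb (horizontal axis), with the gene in grey and steps of fewer than 10 calls left out. The first 1 kb from the start has 1.67 to 7.91% in 5 members and 18.2% in Nlrp5, and sequence upstream of Tle6 reached 66.7% (8 of 12 calls) between 7 and 6 kb before its start.

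RRBS followed parts of the same genes from 40–45 to 60–65 μm, at the few CpGs next to its restriction sites. The start windows of Tle6, Zbed3 and Ooep stayed low. Tle6 (4 positions) had at most 1.16% in any library. Zbed3 (25 to 32 positions) had at most 1.60% in any library, and Ooep (6 to 8 positions) at most 4.17%, in B at 40–45 μm. Padi6 and Khdc3 had no covered position in the start window. Nlrp5 had 3 positions in each A library, with 21.0, 6.56 and 21.8% in order of size, and fewer in each B library, so that its start could not be compared between replicates.

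The bodies of Tle6, Zbed3 and Padi6 were more methylated in both 60–65 μm libraries than in either 40–45 μm library. In order of size, Tle6 had 1.89% (A) and 0% (B), then 3.68 and 4.88%, then 10.3 and 8.81%, over 10 to 14 positions, and the 3 classes did not overlap. That separation depends on averaging over positions, since the pooled calls gave 1.82 and 0%, then 2.59 and 5.67%, and at 60–65 μm 45 of 643 calls in A and 15 of 484 (3.10%) in B, where the later classes overlapped. Zbed3 had 1.14 and 0.845%, then 5.10 and 2.19%, then 8.13 and 5.20%, over 6 to 22 positions, and the later classes lay next to each other, with 5.10% the higher value at 50–55 μm and 5.20% the lower at 60–65 μm. Padi6 had 2.36 and 1.69%, then 5.05 and 9.59%, then 5.97 and 6.05%, over the same 9 positions, with both later classes above the first and overlapping each other. Its pooled calls gave 1.45 and 4.18%, then 3.83 and 4.96%, then 8.53 and 9.18%, where the first classes overlapped and the last stood apart. With a minimum of 1 read per position the mean of the 50–55 μm libraries was 17.3% in place of 7.32% for Padi6 and 13.4% in place of 3.64% for Zbed3.

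Khdc3 had between 0 and 0.508% in all 6 RRBS libraries (6 to 30 positions). It had 1.71% in library A at 60–65 μm over the 6 positions covered in all libraries, and means of 6.82% at 50–55 μm and 1.83% at 60–65 μm with a minimum of 1 read. Ooep had no covered position in its short body. Nlrp5 had 2 positions in 5 libraries, too few to be given a value, and 3 in library A at 50–55 μm (17.6%). Of the 4 bodies measured in both classes, 3 had both 60–65 μm libraries above both 40–45 μm libraries, as did 58.9% of 12934 gene bodies. With 2 libraries against 2, the smallest p of an exact permutation test is above 0.05, and no test was made. Over only the positions covered in all 6 libraries, a restriction added after these values were seen, Tle6 had 1.81 and 0% at 40–45 μm and 9.71 and 5.99% at 60–65 μm, over 10 positions, and Zbed3 2.22 and 0% and then 7.37 and 2.85% over 6 positions.

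**Figure D5:**
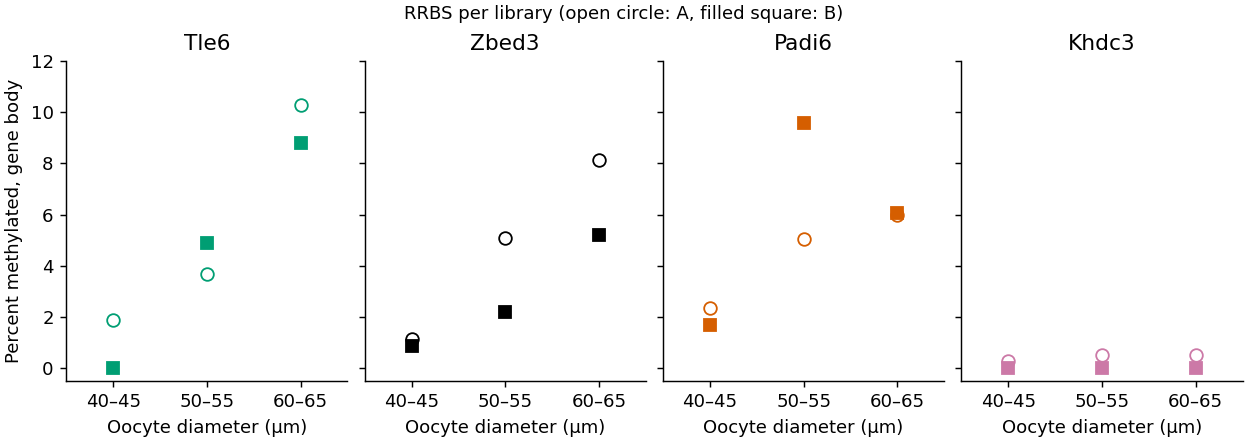
Percent methylated by RRBS in the gene body (vertical axis) per library against oocyte diameter in μm (horizontal axis) for the 4 members that could be measured, with open circles for library A and filled squares for library B. Tle6 goes from 1.89 and 0% at 40–45 μm to 10.3 and 8.81% at 60–65 μm, and Khdc3 lies at or below 0.508%.

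The RNA libraries held about 99400000 to 198300000 counted reads each, as recovered from the steps of the RPKM values, with between 29377 and 186999 reads in each for Ooep, Tle6 and Khdc3. The RRBS libraries held 29942043 to 57215134 calls on the autosomes and the X chromosome, and the PBAT library 98148116 at a median of 2 per cytosine. All 10 oocyte markers were present, with a summed level of 2609 to 3409 RPKM in the growing classes and 2449 in the GV column. The 9 granulosa markers summed to 1.93 to 2.36 RPKM at 10–30 μm, 3.21 to 3.31 at 40–45 μm, 5.14 to 5.48 at 50–55 μm, 6.17 to 6.58 at 60–65 μm and 7.19 in the GV column, most of it Nr5a2 (at most 5.56 RPKM), with at most 0.281 for Amh, 0.0642 for Foxl2 and 0.0382 for Inhba in any column. Both granulosa markers that could be tested rose from 10–30 to 60–65 μm, Nr5a2 3.05-fold and Inha 2.39-fold (limma adjusted p = 1.59e-05 and 0.000525), and the highest values of Inha, Kitl and Fshr in any column were 0.542, 0.907 and 0.286 RPKM. The 6 markers of theca and stroma, led by Col1a1, summed to 2.78 to 3.91 RPKM at 10–30 μm, with Cyp17a1 at 0 there, and to between 0.372 and 1.73 in the other classes. The 4 markers found for endothelium and blood, nearly all of it Pecam1, summed to 0.566 to 0.582 RPKM at 10–30 μm and to 4.28 to 4.77 at 60–65 μm, with at most 0.0101 for Cdh5 and 0.00823 for Ptprc. Their part in the results was not tested, and no member was below 75.4 RPKM in any library.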

How the data were processed

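RNA-seq, RRBS and PBAT files of 16 samples were used, grouped by the labels. The authors trimmed reads (Trim Galore 0.2.8 for RNA-seq, 0.3.5 for bisulphite reads, per the methods and the submitters' processing notes), aligned RNA-seq with TopHat2 2.0.9 and bisulphite reads with Bismark (0.14.0 for RRBS, 0.10.0 for PBAT) to GRCm38, and removed duplicates from PBAT. They deposited RPKM per reference gene, not scaled further between libraries. Whether Cufflinks or SeqMonk made that table, and whether its GV column is 1 library, is not given in the sources used here. For each CpG cytosine the authors deposited the percent methylated and the counts of methylated and unmethylated calls, strands apart. No column of the table was left without a sample.

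RPKM was tested with limma 3.58.1 (trend in the variance) on log2(RPKM × scale factor + 0.1), scale factors being a trimmed mean that left out 30% of genes by ratio and 5% by level at each end. The fit took every gene that reached 0.5 RPKM in 2 or more libraries before the GV stage, all 6 members among them, in 1 model with a mean per class, Benjamini-Hochberg adjustment over all genes and a threshold of 0.05. The fit was tested on simulated data. Fold changes are on that scale, after scaling and with the 0.1 added. In single-exon genes 97.1 to 98.8% of values per library, and in 11365 of 20278 genes all values, came out as whole reads (within 0.1 read), and edgeR 4.0.16 was run on these as an added alternative. Methylation is the mean over cytosines with at least 5 reads, needing at least 3 such cytosines.

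The members, the gene lists and the tests were chosen with earlier results of these data known. Named by rule were all members, the 2 genes nearest each in pattern, and of each list the 2 to 4 genes with the largest change, together with Padi1, Padi3, Dnmt1, Nobox, Lhx8, Npm2 and the neighbours Padi4, Tle2 and Dppa5a, which were added after their values were seen. Alternatives covered pseudocounts, filters, scaling, variance models, a replicate block, left-out libraries, coverage minimums and window sizes. Python 3.11.15 and R 4.3.3 were used.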

Additional observations from a re-analysis of the deposited data

How the results depend on the processing

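Of 167 counts recomputed under an alternative, 141 stayed within 1.5 times the reported count, and of 736 single values 702 kept their side of the threshold or moved by less than the spread, 3 lost a call, 5 gained one and 26 moved further. The sign turned in 15 of them, 8 changes between classes and 7 log2 ratios of 2 members, of which 0 had passed the test. The reported counts over all genes were 2456 called from 10–30 to 40–45 μm, 936 from 40–45 to 50–55 μm, 0 from 50–55 to 60–65 μm and 6661 from 10–30 to 60–65 μm. With a pseudocount of 1, 8 genes were called from 50–55 to 60–65 μm. With no filter on low values, which brought 20052 genes into the fit, 515 were called from 40–45 to 50–55 μm, and 2 members from 10–30 to 60–65 μm instead of 4. With only the 2 classes compared in the fit, 1017 were called from 10–30 to 40–45 μm. With RPKM as deposited the share of rising genes among those called from 10–30 to 40–45 μm was 41.7% instead of 63.3%. edgeR on recovered reads, run on fewer genes (4922) and without Padi6 and Nlrp5, called 1170 from 10–30 to 40–45 μm, 474 from 40–45 to 50–55 μm and 3106 from 10–30 to 60–65 μm, with 2 members (Ooep and Khdc3). With a minimum of 10 reads per cytosine, 0 member bodies had 25% or more by PBAT, and from the RefSeq start nearest to that in the table the body of Ooep had 0%. Except where a smaller number of genes or samples is named, the cause was not tested.

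The letters A and B were taken to be names only. Over genes, the deviations of libraries of the same letter correlated between the 3 smaller classes (0.589 to 0.670) and not with the largest (-0.227 to 0.113). A replicate block by letter called 1908 genes from 40–45 to 50–55 μm and 229 from 50–55 to 60–65 μm, and 1 member from 40–45 to 50–55 μm (Padi6, limma adjusted p = 0.0435). Under it Zbed3 passed from 10–30 to 60–65 μm (log2 change 0.83, limma adjusted p = 0.00702), where over all alternatives its adjusted p ran from 0.00569 to 0.627. edgeR with the replicate block called 1567 from 10–30 to 40–45 μm, 122 from 50–55 to 60–65 μm, 3413 from 10–30 to 60–65 μm and 1 member from 40–45 to 50–55 μm (Khdc3, edgeR adjusted p = 0.0442).

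Leaving out 1 library in turn, where the lone library of a class is assumed to vary like the other classes, gave 960 to 2825 calls from 10–30 to 40–45 μm, the lowest without library A at 40–45 μm (1261 without library A at 10–30 μm). From 40–45 to 50–55 μm it gave 0 to 1615. The count was 0 without library B at 40–45 μm or A at 50–55 μm, 255 without B at 50–55 μm, 363 and 371 without A and B at 60–65 μm, 543 without A at 40–45 μm, and 1612 and 1615 without A and B at 10–30 μm. Of the 12 genes named as nearest in pattern, 8 were also the nearest without the GV column.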

Other observations

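Of 10 maternal effect genes outside the complex, all tested, 7 rose, 2 fell and 1 did not pass from 10–30 to 60–65 μm (limma, Benjamini-Hochberg adjusted p under 0.05 over all genes; median log2 change 0.57; beside 32.5% of all genes rising and 30.9% falling). The median over the members was -0.45, and the difference between the lists was not tested. Bnc1, a zinc finger protein, rose 2.40-fold, and Zar1, which binds maternal mRNAs, 1.66-fold. Ago2, the slicing Argonaute, rose 1.75-fold at a low level, from 1.17 and 1.60 RPKM to 2.51 and 2.36. It has 2 entries in the table under its older symbol Eif2c2, and these values are those of the longer one, the entry that was tested. Dppa3 (Stella), which protects maternal methylation after fertilisation, fell 2.27-fold, from 590 and 475 RPKM to 213 and 248 (log2 change -1.18 ± 0.16, SE; limma adjusted p = 0.000323). Npm2, a nuclear chaperone, had 301 and 296 RPKM at 10–30 μm and 304 and 315 at 60–65 μm (limma adjusted p = 0.582).

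Of 5 reference oocyte genes, 2 rose, 1 fell and 2 did not pass from 10–30 to 60–65 μm, beside 32.5% of all genes rising and 30.9% falling. Bmp15, a growth factor of the oocyte, rose 3.25-fold and Gdf9 1.29-fold (limma adjusted p = 1.12e-05 and 0.0159), whereas Zp2, of the zona pellucida, fell 1.57-fold (limma adjusted p = 0.00247).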
